A study of Mus musculus with 4 samples.

Results

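Lyve1 Folr2 Ccl8 macrophages of tumor ascites were chosen by their own UMI counts of 13 genes. A barcode counted as a member when it held 1000 to 4800 genes and at most 15% mitochondrial UMIs (unique molecular identifiers, 1 per captured RNA molecule). It further needed at least 3 UMIs over the macrophage genes C1qa, C1qb, C1qc, Csf1r and Adgre1, none of Cd79a or Cd3e, fewer than 2 of Nos2, fewer than 2 of Mki67 plus Top2a, and at least 3 of Lyve1, Folr2 and Ccl8 together. These limits gave 2171 members of 133849 deposited barcodes, of 37844 barcodes within the limits on genes and mitochondrial UMIs, and of 11972 macrophages that met every condition except the last. The members were thus selected on the measured values of these genes, whose levels describe the choice and were not tested.

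The libraries came from ascites of female FVB mice, 6 weeks after intraperitoneal injection of Br-Luc cells, a mouse ovarian cancer line with the genotype p53-/-, brca1-/-, myc, Akt-myr. Mice of one group received siFXR1-LNA, a locked nucleic acid siRNA against Fxr1 carried by jetPEI, and mice of the other a control siRNA of the same chemistry and carrier (siCont). There were 2 libraries per group. Per the study's methods, each library was made from ascites pooled over 3 biological replicates, with 2 such pools per group. P-values therefore measure the spread between pools. For its own analysis the paper set aside 1 of the 2 siFXR1-LNA samples because its yield of reads and cells was smaller. It does not give the replicate number of that sample. Both siFXR1-LNA libraries were kept here. Wherever 4 values are listed, their order is siCont replicate 1, siCont replicate 2, siFXR1-LNA replicate 1 and siFXR1-LNA replicate 2.

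Macrophages that carry Lyve1 and Folr2 are known from many tissues, where they lie near vessels and in serous linings and take up debris, hyaluronan and folate. In the peritoneal cavity, large macrophages that have lived there since early life carry Timd4, a receptor for dying cells, whereas cells that arrived from blood monocytes carry the chemokine receptor Ccr2 and much MHC class II. Lyve1 binds hyaluronan, Folr2 binds folate, and Ccl8 is a chemokine that attracts monocytes and T cells.

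Members numbered 1286, 490, 95 and 300 in the 4 libraries. Their median depth was 6489, 9918, 6337 and 9000 UMIs per cell, and their summed counts came to 8880382, 5056571, 601820 and 2787082 UMIs. The siFXR1-LNA replicate 1 library therefore rested on the fewest cells and stood apart, with correlations of 0.868 to 0.908 with the other libraries across 11020 genes, against 0.948 to 0.955 among those 3. Median hemoglobin was 3.43%, 0.317%, 0.852% and 0.108% of a member's UMIs, and each pair of libraries had 598 to 2882 barcode sequences in common, 1 of them a member in both.

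Levels below are summed UMIs over members, as CPM, the usual scaling of counts to a common library total. Fxr1 itself, the gene that the siRNA addresses, stood at 67.6, 65.7, 69.8 and 80.7 CPM in members. Neither library labelled siFXR1-LNA lay below a siCont library (log2 fold change 0.23, SE 0.17, edgeR adjusted p = 0.768), so the transcript did not separate the labels in the direction of a knockdown. Its relatives Fxr2 and Fmr1 differed by 0.32 (SE 0.27) and -0.19 (SE 0.20) on the log2 scale and did not pass either. Comparisons below follow the labels.

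The name of the cells was set beside genes outside the rule. Its marker genes were chosen with earlier results of these data known. They are compared across the split that the rule made, so they describe the name and do not test it. Fcna, a ficolin that opsonizes microbes, Cbr2, a carbonyl reductase, and Cd5l, a secreted protein of tissue macrophages, were each higher in members than in the other macrophages of all 4 libraries. Cbr2 was found in 89.2%, 82.4%, 68.4% and 83.3% of members. General macrophage genes were present throughout, with Cd68 at 702, 683, 598 and 843 CPM. Lymphatic endothelium also carries Lyve1, but its defining genes were at or near 0 in members: Prox1 had 0, 0.198, 0 and 0 CPM, and Mmrn1 had 0.225, 0, 0 and 0 CPM. Sums over 7 endothelial markers were 20.7, 21.0, 38.2 and 20.1 CPM.

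Folr2 was the most widespread of the naming genes and Ccl8 the rarest. Over all members, 95.9% had a Folr2 UMI, 56.1% a Lyve1 UMI and 17.1% a Ccl8 UMI. All 3 genes were seen together in 139, 8, 7 and 23 cells. The largest class in all was Lyve1 with Folr2 and no Ccl8 (969 cells, 44.6%), followed by Folr2 alone (764 cells, 35.2%), so the label names a range of cells rather than one with all 3 transcripts. A Ccl8 UMI was present in 21.5%, 4.29%, 17.9% and 19.0% of members, which sets siCont replicate 2 apart from the other 3 libraries. The Lyve1 level was 562, 446, 311 and 229 CPM and that of Folr2 704, 525, 419 and 424 CPM.

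**Figure D1:**
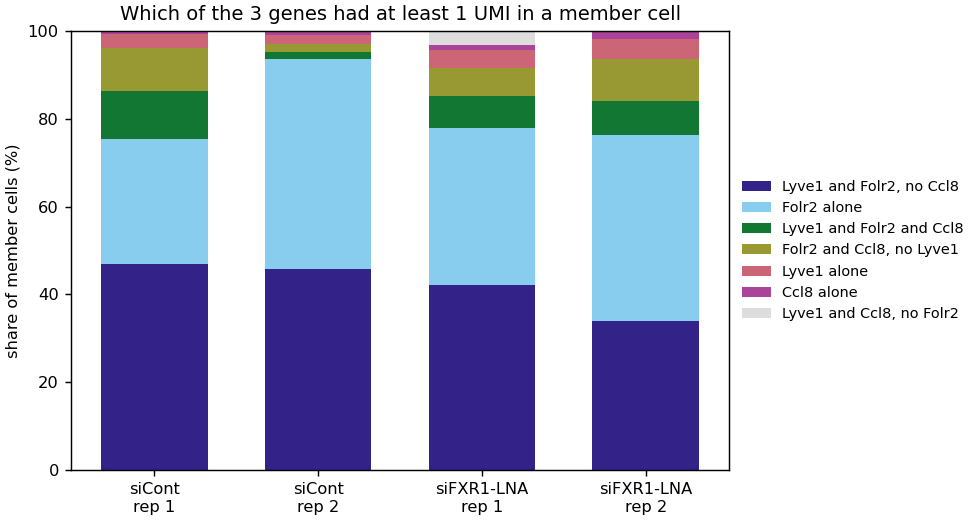
Share of member cells (y axis, %) in each library by which of Lyve1, Folr2 and Ccl8 had at least 1 UMI. Lyve1 with Folr2 and Folr2 alone fill most of every bar, and cells with a Ccl8 UMI are fewest in siCont replicate 2 (4.29%).

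At the edge of the rule, 426 macrophages had exactly 3 UMIs of the 3 genes and were taken, with a median of 6774 UMIs per cell. Another 660 had 2 UMIs and were not, with a median of 6331. By library, cells with exactly 3 UMIs were 201, 96, 45 and 84 of the 1286, 490, 95 and 300 members. The median sum of the 3 genes in members was 7, 6, 4 and 5 UMIs, so siFXR1-LNA members lay nearer the edge. Free RNA was gauged in barcodes that should lack these genes. B cell barcodes (Cd79a at least 2 UMIs, no macrophage UMI) numbered 697, 949, 169 and 122, and none reached 3 UMIs, which allows shares of up to 0.430%, 0.316%, 1.78% and 2.46%. A single UMI or more was found in 6.03%, 2.63%, 2.37% and 2.46% of them, at median depths of 3115, 3847, 2559 and 2491 UMIs. Of 147, 508, 19 and 114 T cell barcodes without a macrophage UMI none reached 3 UMIs either, which allows up to 2.04%, 0.591%, 15.8% and 2.63%. Both gauges are low by construction, since they leave out barcodes that took up macrophage RNA of any kind and are shallower than members. With no limit on macrophage UMIs, a choice added after seeing the data that also lets in doublets, B cell barcodes numbered 2279, 1562, 349 and 463, and 5.31%, 1.79%, 0% and 0.216% of them reached 3 UMIs (0 of 349 allows up to 0.860%). The same limit applies to the other levels given below for B cell barcodes.

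Members made up a smaller share of macrophages in both siFXR1-LNA libraries. They were 31.5% of 4077 (exact 95% binomial interval 30.1 to 33.0), 28.3% of 1733 (26.2 to 30.5), 3.56% of 2669 (2.89 to 4.33) and 8.59% of 3493 macrophages (7.68 to 9.57). The groups did not overlap, at 29.9% ± 2.31 (SD, n = 2) for siCont and 6.07% ± 3.56 (SD, n = 2) for siFXR1-LNA. The difference was -23.8 percentage points, with a two-sided exact permutation p of 0.333, the smallest that 2 libraries against 2 can give. Intervals cover counting error only.

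Depth and the choice of denominator bear on this share. Macrophages outside the members were shallower than members, at medians of 4364, 7381, 4318 and 4845 UMIs. After every macrophage was thinned to 2000 UMIs, with 141, 23, 79 and 133 shallower ones left out, the shares were 14.7%, 7.78%, 1.04% and 1.85%, a difference of -9.80 points. The siFXR1-LNA libraries also held 1284 and 1363 macrophages with 2 or more Nos2 UMIs, against 0 and 0 in siCont, which the rule keeps out of members and denominator. With these and cycling macrophages counted in, members were 28.4%, 25.4%, 2.37% and 6.05%. Shares of all barcodes within the limits were 12.2%, 7.63%, 0.839% and 3.15%.

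**Figure D2:**
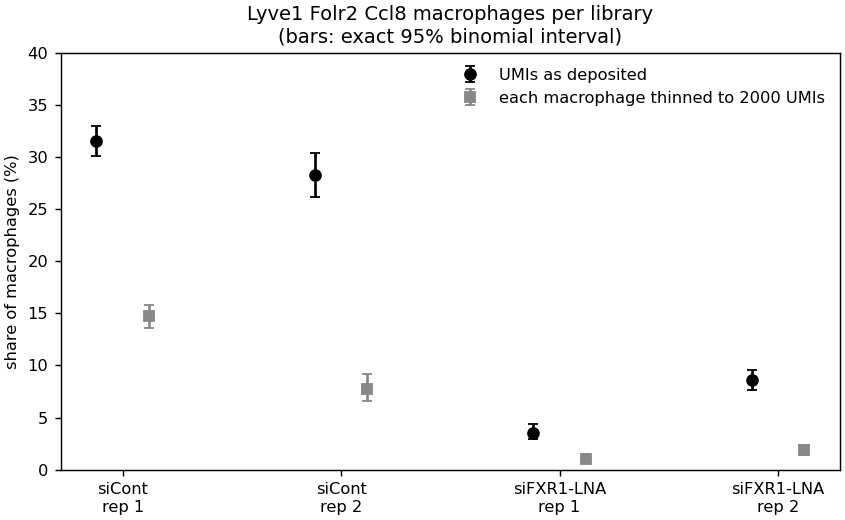
Lyve1 Folr2 Ccl8 macrophages as a share of macrophages (y axis, %) in each library, with all UMIs (circles) and after thinning each macrophage to 2000 UMIs (squares). Error bars are exact 95% binomial intervals. Both siFXR1-LNA libraries (3.56% and 8.59%) lie below both siCont libraries (31.5% and 28.3%).

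Members differed from the other macrophages of their own library in several gene lists, uptake receptors and monocyte genes among them. Since the rule split the cells on this contrast, the ratios are a description with no test. Of 3212 genes with a mean of at least 50 CPM in members, 25 were at least 2-fold higher in members in every library, on the log2 scale of CPM plus 5. Of 3186 genes with that mean in the other macrophages, 14 were at least 2-fold lower in every library. Across the 11009 genes tested below, 19.7% were higher and 18.2% lower in members in every library. Of 8 general macrophage markers 6 were higher in every library and 0 lower, with sums of 42081, 29197, 27349 and 51106 CPM against 23547, 19841, 14254 and 23599 CPM. Erythrocyte (4 of 4), mesothelial or tumor (7 of 7) and dendritic cell markers (6 of 6) were lower in every library. The part of such a difference in macrophage RNA in the ratios below was not tested.

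The opsonin and marker genes led this set. Fcna stood at 2695, 1369, 864 and 1226 CPM in members and at 609, 335, 173 and 197 CPM in the other macrophages. Cbr2 stood at 1299, 1018, 404 and 712 CPM, against 239, 148, 42.5 and 91.7 CPM. The log2 ratio of Cbr2 lay between 2.42 and 3.11 and, of the genes outside the rule, Cbr2 and Fcna alone were at least 4-fold higher in every library.

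Uptake receptors followed. Mrc1, the mannose receptor, was at 698, 523, 497 and 559 CPM against 189, 185, 131 and 149 CPM. Cd36, a receptor for lipids and dying cells, had 487, 440, 322 and 494 CPM against 137, 192, 80.2 and 150 CPM. Trem2, a lipid sensor of tissue macrophages, had 473, 412, 459 and 601 CPM against 170, 167, 131 and 181 CPM. Of 20 scavenger and lectin receptors measured, 11 were higher in every library and 3 lower. Among the 14 efferocytosis genes, which serve the uptake of dying cells, 7 were higher and 2 lower. Of 10 complement and opsonin genes, 7 were higher and 2 lower. Over all genes tested these shares were 19.7% and 18.2%.

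Some genes of secreted products were higher in members. Of 20 chemokine genes 5 were higher and 7 lower in every library, against 19.7% and 18.2% of all genes tested. Ccl6, a chemokine, reached 7312, 9493, 6597 and 6062 CPM in members against 2628, 3669, 1720 and 1691 CPM. Wfdc17, a secreted protein of macrophages, and Selenop, the selenium carrier, had log2 ratios of 1.33 to 1.96 and 1.34 to 1.68. Serpinb6a, a protease inhibitor, had log2 ratios between 1.36 and 1.51. Hal, Gpx3, Ednrb, Gpnmb, Tns1, Igfbp4, Padi4, Rcn3, Nrp1, Cd5l and Psd3 complete the 20 leading genes.

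Monocyte genes were mostly lower in members. Of 10 monocyte genes, 7 were lower in every library and none higher, and of 16 inflammatory genes 6 were lower and 0 higher. Hypoxia and glycolysis genes were lower for 8 of 14 and MHC class II genes for 4 of 10, with 0 higher in either list. Over all genes tested, 18.2% were lower and 19.7% higher in every library. Il1b, a pyrogenic cytokine, was at 4.95, 17.8, 13.3 and 64.6 CPM, against 37.4, 65.1, 115 and 259 CPM. Ly6c2, a monocyte surface gene, was at 49.8, 342, 165 and 48.1 CPM, against 394, 1028, 507 and 429 CPM. Cytip, Coro1a, Ifitm1, Creb5, Ccl5, Napsa, Slpi and Il1r2 were the other 8 genes that led this direction. Granulocyte markers were also lower in members in every library for 6 of 8 genes, with sums of 79.8, 538, 680 and 1199 CPM against 229, 605, 2575 and 6265 CPM, and their part in the ratios of Il1b, Slpi and Il1r2 was not tested.

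**Figure D3:**
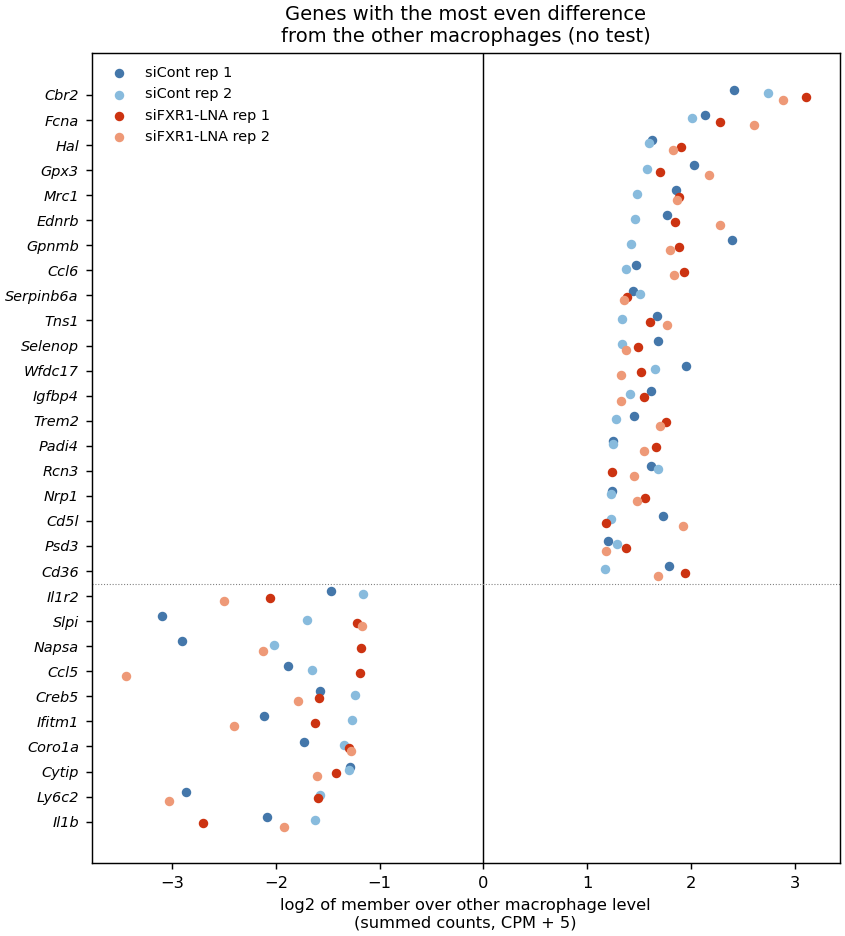
Log2 ratio of the level in members to that in other macrophages of the same library (x axis, CPM plus 5), 1 point per library, for the 20 genes with the highest lowest ratio and the 10 with the lowest highest ratio. Cbr2 has the ratios farthest to the right, 2.42 to 3.11.

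RefSeq promoters (GRCm38.p6), read over the 250 bases before the start site, were searched on both strands for letters tied to macrophage genes. GAGGAAG, the core of many sites of the macrophage factor PU.1, occurred in 10.6% of 32851 promoters and in 4 of the 6 promoters found for Folr2, Ccl8, Fcna, Cbr2 and Cd5l (Lyve1 was not matched). TGCTGAC, part of sites of the Maf factors, occurred in 3.81% of promoters and in 1 of these 6, that of Fcna. A match is a description of letters and not of binding. The matches nearest the start are printed in the direction of the gene, 5′ to 3′, with the match or its reverse complement in capitals.
Cbr2, chr11:120732085-120732109, minus strand: ctacccttgGAGGAAGcgggtcatg
Ccl8, chr11:82114935-82114959, plus strand: gtgggactgCTTCCTCcatgctgct
Cd5l, chr3:87357805-87357829, plus strand: gtcacctccCTTCCTCtggccatgc
Fcna, chr2:25628122-25628146, minus strand: gaggaggaaGAGGAAGgtggagaag

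Members were not uniform in their origin markers. Timd4 without Ccr2 was seen in 332 members (15.3%), Ccr2 without Timd4 in 681 (31.4%), both in 87 (4.01%) and neither in 1071 (49.3%). A Timd4 UMI was present in 25.7%, 9.80%, 10.5% and 10.0% of members, and in 14.0%, 3.47%, 6.32% and 5.35% after thinning to 2000 UMIs. A Ccr2 UMI was present in 30.1%, 55.3%, 28.4% and 27.7%, and in 16.0%, 33.1%, 15.8% and 15.4% after thinning. Timd4 was thus most frequent in siCont replicate 1 and Ccr2 in siCont replicate 2, each apart from the other 3 libraries, which lay close together.

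Members with Timd4 and no Ccr2 UMI numbered 267, 32, 7 and 26, and those with Ccr2 and no Timd4 UMI 323, 255, 24 and 79. Their levels were compared within each library, as a description. Of 204 other list genes, 40 (19.6%) were higher in Timd4 members in every library and 31 (15.2%) lower. Shares over all genes were not computed for this split. At least 2-fold higher in every library were Cd5l, Vsig4, a complement receptor of resident macrophages, Alox15 and Prg4, both known from large peritoneal macrophages, and Fabp4, a fatty acid binder. Of the other resident peritoneal genes, Icam2, Itga6 and Lbp were higher in every library. Gata6 (log2 ratios -0.32, 0.96, -0.78 and -0.14), Garnl3, Naip1 and Selp were of mixed sign, and Cd226 was not higher in any library (-1.08, -0.77, 0 and -0.86). At least 2-fold lower were H2-Aa and Cd74 of MHC class II, the monocyte genes Ly6c2, Plac8 and Ms4a4c, and the lectin Mgl2. Log2 ratios of Cd5l were 1.71, 2.89, 2.94 and 3.77, and those of Cd74 -1.83, -1.25, -1.22 and -1.14. The 7 Timd4 cells of siFXR1-LNA replicate 1 make its ratios the least certain.

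**Figure D4:**
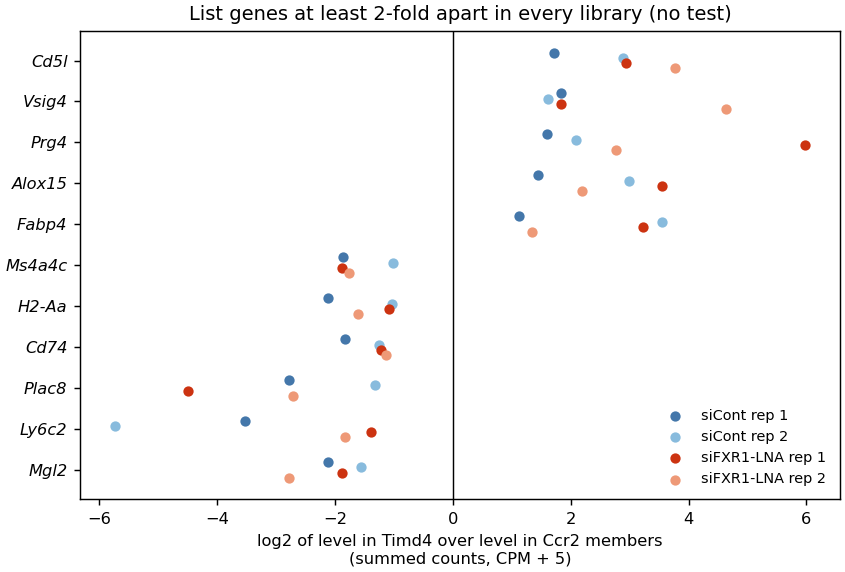
Log2 ratio of the level in members with Timd4 and no Ccr2 UMI to that in members with Ccr2 and no Timd4 UMI (x axis, CPM plus 5), 1 point per library, for the list genes at least 2-fold apart in every library. Cd5l has ratios of 1.71 to 3.77 and Cd74 of -1.83 to -1.14.

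Members with a Ccl8 UMI (276, 21, 17 and 57 cells) were set beside those without in the same way. The lists hold resident, monocyte and MHC class II genes, so their counts cannot rank this split against that by Timd4 and Ccr2. Shares over all genes were not computed here either. None of 206 list genes was 2-fold apart in every library, while 27 (13.1%) were higher and 40 (19.4%) lower in every library. Ccl12, a neighbouring chemokine gene of the same family, had log2 ratios of 0.91, 2.12, 1.92 and 0.73 in favor of Ccl8 cells. The matrix genes Fn1 and Thbs1 lay the other way, with ratios of -1.37, -0.95, -1.54 and -1.15 for Fn1.

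The effect of treatment within members was tested on the summed counts with edgeR's quasi-likelihood test, 2 libraries per group. Only Cxcl2, a chemokine that draws neutrophils, passed at an adjusted p under 0.05, 1 of 11009 genes outside the rule (0.00908% called), and none passed downward. Cxcl2 had 8.0, 9.69, 201 and 203 CPM. It rose by 4.56 on the log2 scale (SE 0.21, edgeR adjusted p = 0.0059), and both siFXR1-LNA libraries were far above both siCont libraries. A Cxcl2 UMI was found in 1.71%, 6.53%, 21.1% and 29.3% of members. In the other macrophages it had 10.6, 12.1, 572 and 957 CPM, and in B cell barcodes 0.805, 6.04, 325 and 244 CPM. Granulocyte markers summed to 79.8, 538, 680 and 1199 CPM in members. The part of free RNA or of other cells in the rise of Cxcl2 was not tested.

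The number of calls was unstable, and Cxcl2 did not pass in every setting. At an unadjusted p under 0.05 there were 902 genes (8.19%), the next smallest adjusted p was 0.0862, and DESeq2 called 104. Without siCont replicate 1 or 2 edgeR called 146 or 126 genes, and without siFXR1-LNA replicate 1 or 2 it called 0. Cxcl2 then had a log2 fold change of 4.57 or 4.56 (edgeR adjusted p = 0.217 or 0.180), so its p moved while its size did not, with a lone library left in that group. For Cxcl2 with the barcodes of the highest Scrublet doublet scores left out, the log2 fold change was 4.04 (edgeR adjusted p = 0.0816). A simple ordering shows the background: both siFXR1-LNA libraries lay above both siCont libraries in 18.6% of genes and below both in 25.1%.

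The Cxcl2 promoter holds 1 match to GGGA, any base and TTTCC, letters of sites of NF-kB, which 0.356% of promoters hold. It is printed because Cxcl2 alone passed the test.
Cxcl2, chr5:90903793-90903820, plus strand: ctgagctcaGGGAATTTCCctggtcccc

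Genes of the 16 lists gave 193 tested genes in members, of which Cxcl2 alone passed. Their values are given with the median log2 fold change of each list, beside a median of -0.01 over all genes tested. Members were described next to the other macrophages of the same libraries, in which 41 of 13704 genes passed (0.299%), 29 upward (0.212%) and 12 downward (0.0876%). Whether the change in members differed from that in the others was tested by an interaction term, with each library as its own block. This called 325 of 13561 genes (2.4%), with 202 more positive in members (1.49%) and 123 more negative (0.907%). Without siCont replicate 2 it called 205, 86 of them positive, and against other macrophages with no UMI of the 3 naming genes 300, 152 of them positive. Both changes share libraries but no cells. Members of the siFXR1-LNA libraries lay nearer the edge of the rule, and the part of this in the interaction was not tested. Macrophages with 2 or more Nos2 UMIs (0, 0, 1284 and 1363 in the 4 libraries) were outside both classes. Gene changes given above and below therefore leave these cells out.

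Genes of MHC class II, which present peptides to helper T cells, changed differently in members and in the other macrophages. In members H2-Aa stood at 1520, 1600, 1168 and 1941 CPM, with a log2 fold change of 0.03 (SE 0.29, edgeR adjusted p = 0.9995), and the groups overlapped. In the other macrophages it stood at 3933, 4214, 892 and 1857 CPM, with a log2 fold change of -1.57 (SE 0.39, edgeR adjusted p = 0.113), and both siFXR1-LNA libraries were below both siCont libraries. The difference of the changes was 1.63 (SE 0.14, edgeR adjusted p = 2.77e-07).

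Cd74, the invariant chain, had 4534, 4985, 3463 and 5785 CPM in members and 10443, 12366, 2286 and 4898 CPM in the others. Its difference of changes was 1.70 (SE 0.13, edgeR adjusted p = 7.23e-08). Of 10 list genes tested, 7 passed in this direction and none in the other, namely H2-Aa, H2-Ab1, H2-Eb1, H2-DMa, H2-DMb1, Cd74 and Ciita, the regulator of the pathway. The list's median log2 fold change was -0.10 in members and -1.67 in the others. Members held less of it than the others in siCont (8469 and 9412 against 21106 and 24033 CPM in sum) and more in siFXR1-LNA (6532 and 10474 against 4626 and 9699 CPM). Leaving out each library in turn kept 6 or 7 genes past the threshold.

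Interferon-response genes, induced by type I interferon, were lower in the siFXR1-LNA libraries without passing the test. All 15 tested genes had both siFXR1-LNA libraries below both siCont libraries, against 25.1% of all genes, and 14 had an unadjusted p under 0.05. Isg15, a ubiquitin-like protein, had 186, 278, 34.9 and 38.8 CPM (log2 fold change -2.60, SE 0.28, edgeR adjusted p = 0.109). Irf7, a transcription factor of the response, had 185, 330, 29.9 and 63.1 CPM (log2 fold change -2.33, SE 0.42, edgeR adjusted p = 0.242). The list's sum was 4343, 4955, 1471 and 2317 CPM in members and 4328, 5016, 1274 and 2229 CPM in B cell barcodes. The order of libraries was thus the same in both cell types, and the part of free RNA was not tested.

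The difference was smaller in members than in the other macrophages. Medians of the log2 fold change were -1.56 and -3.11, and 10 of 15 interaction terms passed as positive and none as negative. For Ifit3, an antiviral effector, the difference of changes was 2.16 (SE 0.31, edgeR adjusted p = 0.000179), with 59.5, 84.0, 6.65 and 14.0 CPM in members and 107, 154, 2.69 and 5.82 CPM in the others. The members of siFXR1-LNA replicate 1 held 4 UMIs of it. Without siFXR1-LNA replicate 2 3 genes of 15 passed, and without the other libraries 7 to 12.

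Promoters of 11 interferon genes were found, and the core of the interferon-stimulated response element (GAAA, any 2 bases, GAAA) occurred in those of 6 genes and in 2.98% of all promoters. The matches nearest the start of Isg15, Ifit1 and Ifit3, whose log2 fold changes in members were -2.60, -2.06 and -2.55, are shown with the match or its reverse complement in capitals.
Isg15, chr4:156200866-156200893, minus strand: aaggaaaccGAAACAGAAAatagctctg
Ifit1, chr19:34640795-34640822, plus strand: cagtctcagTTTCAGTTTCtcactgctg
Ifit3, chr19:34583398-34583425, plus strand: ttaagtctgTTTCAGTTTCtactttcct

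Genes of inflammatory activation were divided, and none of the 14 tested passed in members. In 7 both siFXR1-LNA libraries lay above both siCont libraries and in 5 below both, against 18.6% and 25.1% of all genes. The median log2 fold change was 0.63 in members and 1.33 in the others. Saa3, an acute-phase protein, had 926, 1043, 17868 and 8725 CPM in members (log2 fold change 3.80, SE 0.44, edgeR adjusted p = 0.137). Lcn2, which binds bacterial iron carriers, had 2.03, 10.9, 806 and 386 CPM. In B cell barcodes Saa3 had 59.6, 54.6, 4964 and 5953 CPM, and the part of free RNA was not tested. Members and the others both leave out macrophages with 2 or more Nos2 UMIs, all of them in siFXR1-LNA libraries.

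For 5 of 16 inflammatory genes the change was smaller in members than in the others, and for none larger. Granulocyte markers summed to 79.8, 538, 680 and 1199 CPM in members and 229, 605, 2575 and 6265 CPM in the others. Barcodes with the top 5% of Scrublet scores were 3.76%, 3.38%, 8.47% and 5.67% of the others. No setting of the interaction left them out, and the part of granulocytes or doublets in these differences was not tested. Acod1, which makes itaconate, had 5.41, 9.89, 59.8 and 59.6 CPM in members and 6.59, 9.36, 285 and 330 CPM in the others, a difference of changes of -2.27 (SE 0.25, edgeR adjusted p = 6.13e-06). Clec4e, a sensor of mycobacterial lipid, Sod2, a superoxide dismutase, Il1a and Saa3 were the other 4. Without siFXR1-LNA replicate 2 there were 3, and without the other libraries 5 to 7.

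Hypoxia and glycolysis genes had the same order of libraries in 11 of 13 tested genes, both siFXR1-LNA libraries above both siCont libraries, against 18.6% of all genes. None passed, 10 had an unadjusted p under 0.05, and the median log2 fold change was 1.12 in members and 1.48 in the others. Vegfa, the vascular growth factor, had 7.66, 4.55, 143 and 56.3 CPM (edgeR adjusted p = 0.182). Egln3, an oxygen sensor, had 5.74, 5.74, 91.4 and 55.3 CPM (edgeR adjusted p = 0.0862). The summed level in B cell barcodes was 1670, 1313, 4152 and 3060 CPM, in the same order of groups. The interaction passed for Bnip3 and Pgk1 alone, both as smaller in members.

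**Figure D5:**
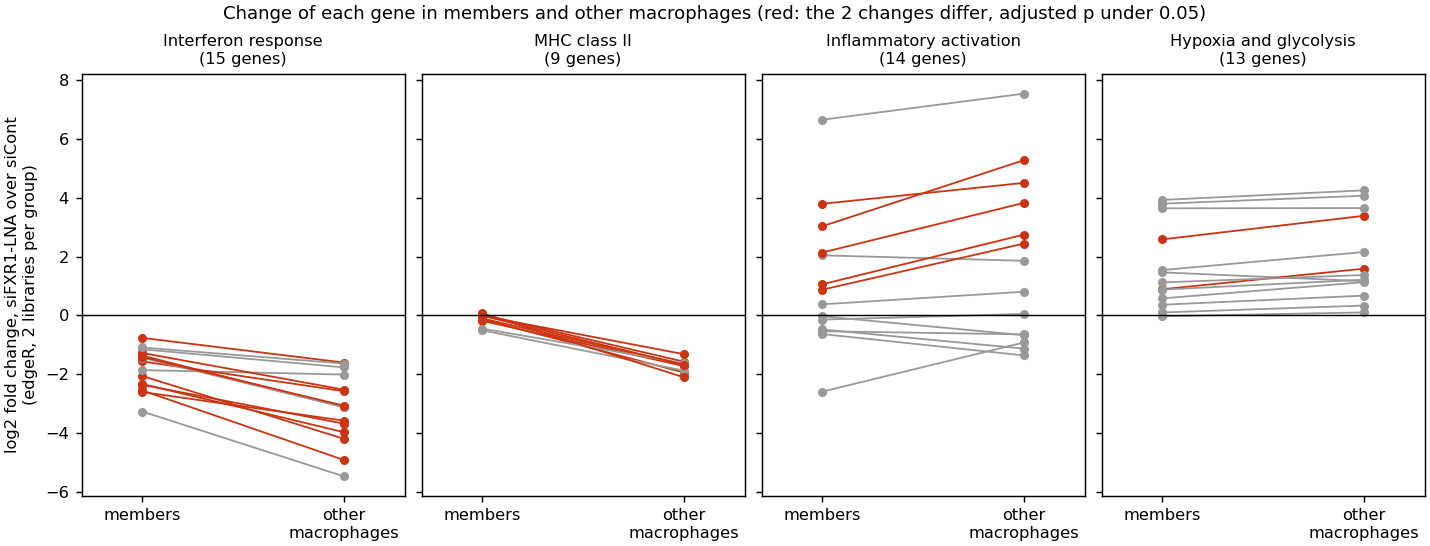
Log2 fold change of each list gene between siFXR1-LNA and siCont (y axis, edgeR, 2 libraries per group) in members and in other macrophages, joined by a line per gene. Red lines are genes whose changes differ at an adjusted p under 0.05: 10 interferon, 7 MHC class II, 5 inflammatory and 2 hypoxia genes. MHC class II lies near 0 in members, with a median of -0.10, and at -1.67 in the others.

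Chemokine genes split. Next to Cxcl2, whose change was smaller in members (difference -1.54, SE 0.24, edgeR adjusted p = 0.00061), the interaction was negative for Cxcl3, Ccl2, Ccl3, Cxcl13 and Pf4 and positive for Ccl6 and Ccl12, of 20 tested. Pf4, a platelet and macrophage chemokine, had 1217, 2758, 1957 and 2053 CPM in members and 282, 621, 1357 and 1239 CPM in the others. Its groups overlapped in members and were separate in the others. Against other macrophages with no UMI of the naming genes 3 chemokine genes passed as negative, and without siFXR1-LNA replicate 1 there were 9.

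Among scavenger receptors the interaction was positive for Cd209f, Mgl2, Vsig4 and Fcgrt and negative for Cd163 and Marco, of 18 tested. Vsig4 had 64.7, 93.9, 56.5 and 80.7 CPM in members and 39.1, 51.1, 6.26 and 18.8 CPM in the others (difference 1.61, SE 0.24, edgeR adjusted p = 0.000321). Cd163, a receptor for hemoglobin bound to haptoglobin, had 43.0, 234, 153 and 135 CPM in members and 9.50, 38.5, 94.0 and 76.1 CPM in the others (difference -1.62, SE 0.19, edgeR adjusted p = 1.59e-05). Vsig4 and Cd163 passed with any 1 library left out. Without siFXR1-LNA replicate 2 the other 4 did not, and Cd209f turned to -3.34, on 292, 1, 0 and 29 UMIs in members. Fcgrt passed in 1 of the 4 settings with a library left out. Of the efferocytosis genes, Axl, Itgb5 and Cd300a were more positive in members and Abca1 more negative, of 14 tested. Cd300a passed with any 1 library left out, whereas without siCont replicate 2 Axl and Itgb5 did not pass, without siFXR1-LNA replicate 2 Axl did not, and without siFXR1-LNA replicate 1 Abca1 did not. Mertk, the main receptor kinase for dying cells in macrophages, had 191, 231, 259 and 254 CPM in members and did not pass in either test.

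Iron and heme genes gave 1 positive and 4 negative interaction terms of 13. Hmox1, which breaks down heme, had 2046, 891, 2237 and 2956 CPM in members and 647, 409, 1680 and 1848 CPM in the others (difference -0.83, SE 0.17, edgeR adjusted p = 0.00788). Fth1, a ferritin chain, Tfrc, the transferrin receptor, and Cp, a copper-bearing iron oxidase, were the other 3 negative genes, and Hfe was the positive one. Tfrc passed with any 1 library left out, and Hfe with none (edgeR adjusted p = 0.0573 to 0.261). Hmox1 and Fth1 did not pass without siFXR1-LNA replicate 1, nor Cp without siCont replicate 1. Hemoglobin counts moved with the libraries, at 61395, 43726, 17791 and 10652 CPM over 4 erythrocyte markers in members. With the hemoglobin genes left out of the counts, the list again gave 1 positive and 4 negative terms, with a median of -0.44 against -0.39. The part of erythrocytes in these differences was not tested beyond that.

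The remaining lists held few differences. Arg1, which consumes arginine, had 1529, 3221, 6276 and 3725 CPM in members and 740, 1203, 3728 and 2688 CPM in the others, and Retnla, a gene of interleukin-4 responses, had 1485, 1122, 1039 and 208 CPM and 751, 582, 178 and 50.8 CPM. They were the 2 alternative-activation genes of 13 whose interaction passed, Arg1 negative (-0.60, SE 0.14, edgeR adjusted p = 0.0155) and Retnla positive (1.35, SE 0.17, edgeR adjusted p = 2.26e-05). F13a1, Mmp9 and Sdc4 passed as negative among 15 growth factor and matrix genes, Apoe as positive among 9 lipid genes, Icam2 and Itga6 as positive among 11 resident peritoneal genes, Ccr2 as positive among 10 monocyte genes, and Irf8 as positive among 14 transcription factors. Retnla and F13a1 passed with any 1 library left out, Icam2 and Irf8 with none. Arg1, Sdc4, Apoe and Itga6 did not pass without siFXR1-LNA replicate 2, Apoe and Ccr2 without siFXR1-LNA replicate 1, Mmp9 and Ccr2 without siCont replicate 1, and Itga6 without siCont replicate 2. None of the 10 complement genes and none of the 3 fragile X genes passed.

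Maf, a transcription factor linked to resident macrophages, had 225, 315, 251 and 359 CPM in members, and the groups overlapped. Nr1h3, an oxysterol receptor, had the lowest log2 fold change of the transcription factor list, -2.42 (SE 0.55, edgeR adjusted p = 0.37), at 24.3, 59.3, 6.65 and 7.89 CPM.

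The markers outside the rule were lower within the siFXR1-LNA members as well, without passing. Members there also held fewer UMIs of the 3 naming genes, with medians of 7, 6, 4 and 5 in the 4 libraries. The part of this in the lower markers was not tested. Fcna, Cbr2 and Cd5l each had both siFXR1-LNA libraries below both siCont libraries, as did 25.1% of all genes. Their log2 fold changes were -0.92 (SE 0.37), -1.01 (SE 0.31) and -1.32 (SE 0.26), with edgeR adjusted p of 0.608, 0.504 and 0.27. Cd5l had 592, 403, 169 and 216 CPM. Their interaction terms did not pass (0.42, SE 0.16; 0.50, SE 0.16; 0.21, SE 0.22), so a change particular to members was not shown.

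Markers of other cells in members were given as sums. Granulocyte markers ran from 79.8 to 538 CPM in siCont and from 680 to 1199 CPM in siFXR1-LNA. Mast cell markers had 307, 97.3, 18.3 and 17.6 CPM, and mesothelial or tumor markers 230, 52.8, 276 and 124 CPM. Fibroblast markers had 80.3, 11.9, 199 and 53.1 CPM, and dendritic cell markers 23.3, 9.29, 4.98 and 3.95 CPM. B cell, T cell, NK cell and platelet markers stayed at 35.8 CPM or less. The part of such cells or of their free RNA in the results was not tested. Members among the barcodes with the top 5% of Scrublet scores were 3.19%, 2.04%, 2.11% and 3.33% of their library's members.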

How the data were processed

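Single-cell RNA was measured in 4 libraries of ascites. For each, the authors deposited raw UMI counts of each gene in each barcode. Cell Ranger 7.0.0 is named in the file headers, and reads were aligned to mm10 per the submitters' processing notes. The values are whole numbers and were used as deposited. The labels name the v2 kit and the design text another version. Free RNA was not subtracted here, and doublets were left out only in an alternative with Scrublet.

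Members were selected as described in the results. The members and gene lists were chosen with earlier results of these data known. UMI counts were summed per library over members and over other macrophages. Groups were compared with edgeR 4.0.16 (R 4.3.3; TMM, filterByExpr, quasi-likelihood test, Benjamini-Hochberg adjustment over all genes, threshold 0.05), with DESeq2 1.42.0 as an alternative, and checked on simulated counts. Shares were compared by an exact permutation test over libraries. Scrublet scores came from scanpy 1.11.5. Thinning drew 2000 UMIs per cell. The named genes were the list genes, up to 10 rises and falls with mean CPM of at least 20, the 20 and 10 genes that most evenly separated members (pseudocount 5 CPM, mean at least 50 CPM), and the 5 largest interactions of each sign. Mx1, Ero1a and Aldoa were not matched to a feature. Libraries held 78179267 to 113606837 UMIs in all and 95 to 1286 members, and precision rests on the members.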

Additional observations from a re-analysis of the deposited data

Results flagged for a closer look

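The change between siCont and siFXR1-LNA differed between members and the other macrophages for 325 genes by edgeR's interaction test. The 5 most positive differences on the log2 scale were Cd209f (5.45), Ifit3b (2.97), A330040F15Rik (2.37), Mgl2 (2.18) and Ifit3 (2.16). The 5 most negative were Stfa1 (-4.80), Cxcl3 (-3.60), Mylk (-3.35), Asprv1 (-2.99) and Tfrc (-2.53).

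Several of these rested on few counts. Cd209f, a lectin gene, had 292, 1, 0 and 29 UMIs in members, Ifit3b, an interferon-induced gene, 115, 132, 0 and 10, and Stfa1, a stefin of granulocytes, 11, 5, 0 and 28. Mylk, myosin light chain kinase, had 25, 3, 0 and 2 UMIs, and Asprv1, a protease gene, 3, 18, 1 and 23. Tfrc was better counted, with 1026, 78, 61 and 105 UMIs, at 116, 15.4, 101 and 37.7 CPM in members and 34.6, 9.67, 215 and 85.7 CPM in the other macrophages. Its groups overlapped in members and were separate in the others.

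The differences moved with single libraries. Cxcl3 was -1.20 without siCont replicate 1 (edgeR adjusted p = 0.831), -8.07 without siCont replicate 2 and -6.87 without siFXR1-LNA replicate 2. Asprv1 was -0.73 without siCont replicate 2 (edgeR adjusted p = 0.996), -4.54 without siCont replicate 1, and -3.70 without siFXR1-LNA replicate 2 (edgeR adjusted p = 0.0508). Mylk was -2.81 without siCont replicate 1 and -7.56 without siFXR1-LNA replicate 2, and passed in neither (edgeR adjusted p = 0.521 and 0.601). Stfa1 ran from -12.69 to -3.37 and Tfrc from -2.98 to -1.84 with 1 library left out, and both passed each time. Without siFXR1-LNA replicate 2 none of the 5 positive genes passed, with A330040F15Rik at 2.07, Mgl2 at 1.58, Ifit3 at 2.05, Cd209f at -3.34 and Ifit3b at -4.15. Cd209f was 7.88 without siCont replicate 1 (edgeR adjusted p = 0.504).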

How the results depend on the processing

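The share of members kept its direction in every alternative, with differences from -27.4 to -9.80 percentage points, and from -26.3 to -21.3 with 1 library left out. The count of genes called in members did not hold. It was 104 with DESeq2, 454 without a filter on low counts, 149 with the replicate block, 6 with at least 5 UMIs of the 3 genes, 0 without the highest Scrublet scores (892 at an unadjusted p under 0.05) and 5 without barcodes shared between libraries, an alternative chosen after seeing the data. With 1 library left out it ran from 0 to 146. Among list genes the counts were 29, 65, 29, 6, 0 and 4 for the same settings, and 0 to 34 with 1 library left out. The labels do not say that replicate numbers mark a shared origin, with a correlation of same-numbered deviations of 0.149 over 2 pairs, so the block is given as a setting only. The interaction count ran from 205 to 459 with 1 library left out, lowest without siCont replicate 2. With 1 library left out the difference ran from -3.34 to 7.88 for Cd209f and from -4.15 to 3.15 for Ifit3b, both reversed without siFXR1-LNA replicate 2. In that setting 32 of 62 named interaction genes still passed, 28 no longer passed and these 2 reversed. The cause of these shifts was not tested. A lone library left in a group is assumed to vary like the other group.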
